A study of Homo sapiens with 6 samples.

Results

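The 250 zinc finger genes of chromosome 19 were those genes of the deposited table whose symbol was ZNF followed by a number and whose map location began with 19p or 19q. They were 250 of the 17687 genes in the table. RNA-seq had been made from KHM-5M cells, an established line of anaplastic thyroid cancer, to follow the transcriptome after sodium selenite (SS), a selenium salt that raises reactive oxygen species, and to ask which changes were prevented by N-acetylcysteine (NAC), an antioxidant. The line was grown in RPMI-1640 with fetal bovine serum, and all 3 groups were cultures of that single line with 2 replicates each: the control group received PBS, the SS group sodium selenite, and the SS+NAC group sodium selenite together with NAC. There was no group with NAC alone, and the labels give neither the concentration of SS nor the time of harvest of the sequenced cultures.

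Most genes of this family encode proteins with a row of C2H2 zinc fingers, each of which is folded around a zinc ion and reads a few bases of DNA. In many of them a KRAB domain at the other end of the protein recruits the co-repressor TRIM28, and through it the histone methyltransferase SETDB1 and HP1 proteins, which silence transposable elements and other targets. The genes lie in clusters of tandem copies on chromosome 19, and their mRNAs are known for low levels and fast turnover.

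The table annotated a KRAB domain in 209 of the 250 genes, a SCAN domain in 3 and a C2H2 finger in 248. The longest coding sequence in GENCODE held a median of 12 fingers by their spacing pattern, from 0 to 36 over the 247 genes that had one. The genes were spread over 16 bands. Their effective length, the length over which a read could start, ran from 1123 to 11866 bases. Its median was 3562 bases over the 232 tested genes, compared to 3035 bases over the other tested genes. The family shares sequence: over 10% of the 50-base windows of 50 genes, and over 50% of those of 8 genes, also occurred in transcripts of another gene, so that reads of the same length could have been split between copies. The gene models of the table were also wider than those of RefSeq. The span of 127 of the 250 genes exceeded 2 times the RefSeq span, 200 overlapped the span of another zinc finger gene of the chromosome, and 46 of the 216 genes with a RefSeq promoter were listed on the opposite strand. A value therefore belongs to the model of the table and can hold reads from neighbouring transcripts.

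Because the genes of a cluster descend from common ancestors, their promoters were compared before their levels. A RefSeq promoter, from 250 bases before to 50 bases after the start site on GRCh38.p14, was found for 216 of the genes by gene ID. The word of 12 bases present in the largest number of these promoters was CTGTCACTCAGG, searched on both strands. It was found in 23 of the 216 promoters (10.6%) and in 37 of 27305 promoters of all genes (0.136%). Of the 27 promoters of band 19p12, 18 held it, at positions from -130 to -69 over all 23 holders with a median of -123. Within 1 mismatch the word was in 21 of the 27 promoters of 19p12, in 11 of 209 promoters of zinc finger genes of other chromosomes and in 170 of all 27305. The ETS core CCGGAAG, on either strand, was in 45.8% of the promoters of the family and in 10.7% of all promoters. It was in 77.8% of the family's promoters in 19p12 and in 41.3% of those in its other bands. Among zinc finger genes of other chromosomes its share was 35.9%. The CCAAT box, on either strand, was in all 27 promoters of 19p12, in 53.7% of the family and in 35.7% of all promoters. Its share was 47.1% in the family's other bands and 44.5% among zinc finger genes of other chromosomes. The TATA motif TATAAA was in 4 promoters of the family (1.85%), in 12% of all promoters and in 4.31% of those of zinc finger genes of other chromosomes. Of these 4 promoters, 3 lay in 19p12 (11.1% of its 27) and 1 in the other bands (0.529%). No promoter of the family had matches of different motifs that overlapped. The word was derived from these same promoters, so its frequency in them is a description, and a match does not show a bound site.

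**Figure D1:**
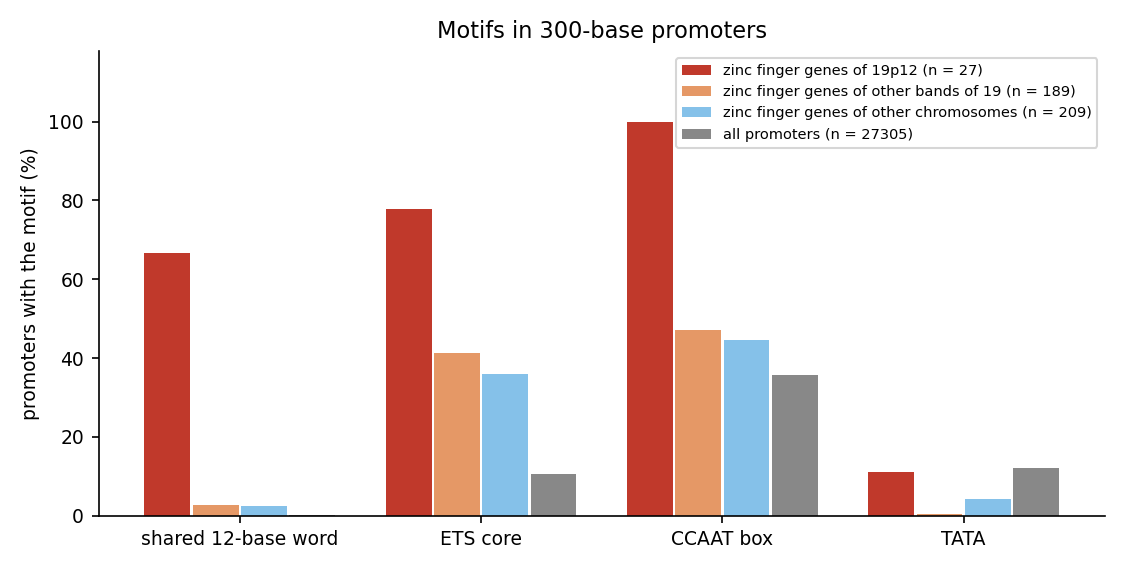
Percentage of 300-base RefSeq promoters that held each motif on either strand, as bars for the 27 zinc finger genes of band 19p12, the 189 of other bands of chromosome 19, the 209 of other chromosomes and all 27305 promoters. The shared word reached 66.7% in 19p12 and 2.65% in the other bands of chromosome 19, while TATA stayed at or below 12% in each set.

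The following 6 promoters are shown because they belong to genes on which the results below turn, with the word, the ETS core and the CCAAT box in capitals. ZNF91 (chr19:23395422-23395721, minus strand), ZNF493 (chr19:21396883-21397182, plus strand) and ZNF85 (chr19:20923001-20923300, plus strand) hold the exact word. ZNF66 (chr19:20776054-20776353, plus strand) holds it with 1 mismatch, left in lower case. ZNF146 (chr19:36214856-36215155, plus strand) holds none of the motifs, and ZNF580 (chr19:55640752-55641051, plus strand) is one of the short genes that rose.
ZNF91: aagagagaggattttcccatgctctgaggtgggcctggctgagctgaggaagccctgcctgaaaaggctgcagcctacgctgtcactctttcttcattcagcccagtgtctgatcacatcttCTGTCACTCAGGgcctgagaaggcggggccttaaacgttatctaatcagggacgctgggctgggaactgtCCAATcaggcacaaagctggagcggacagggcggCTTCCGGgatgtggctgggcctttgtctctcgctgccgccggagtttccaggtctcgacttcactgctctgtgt
ZNF493: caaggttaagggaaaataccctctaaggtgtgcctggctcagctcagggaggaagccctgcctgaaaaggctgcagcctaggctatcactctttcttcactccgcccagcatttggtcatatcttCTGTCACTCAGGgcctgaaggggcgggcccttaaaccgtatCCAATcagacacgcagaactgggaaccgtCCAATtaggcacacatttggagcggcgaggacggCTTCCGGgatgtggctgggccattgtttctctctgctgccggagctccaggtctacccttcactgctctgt
ZNF85: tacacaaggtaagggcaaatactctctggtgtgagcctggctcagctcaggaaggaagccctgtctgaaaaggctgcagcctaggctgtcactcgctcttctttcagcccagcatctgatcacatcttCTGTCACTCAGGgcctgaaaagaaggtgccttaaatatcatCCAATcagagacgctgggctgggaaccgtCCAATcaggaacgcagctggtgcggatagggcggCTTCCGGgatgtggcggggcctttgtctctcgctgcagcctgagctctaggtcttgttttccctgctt
ZNF66: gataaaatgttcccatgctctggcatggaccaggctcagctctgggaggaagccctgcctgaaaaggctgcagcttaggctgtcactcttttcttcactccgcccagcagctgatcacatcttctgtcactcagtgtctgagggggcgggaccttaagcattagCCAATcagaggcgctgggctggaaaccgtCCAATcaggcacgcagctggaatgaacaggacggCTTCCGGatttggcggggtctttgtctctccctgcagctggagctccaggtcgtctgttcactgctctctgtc
ZNF146: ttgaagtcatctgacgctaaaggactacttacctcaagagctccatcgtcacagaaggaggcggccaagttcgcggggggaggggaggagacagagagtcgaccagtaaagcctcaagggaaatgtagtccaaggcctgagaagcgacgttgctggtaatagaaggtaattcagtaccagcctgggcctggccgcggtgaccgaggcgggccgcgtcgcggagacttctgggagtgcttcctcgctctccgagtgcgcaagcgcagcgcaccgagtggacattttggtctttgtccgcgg
ZNF580: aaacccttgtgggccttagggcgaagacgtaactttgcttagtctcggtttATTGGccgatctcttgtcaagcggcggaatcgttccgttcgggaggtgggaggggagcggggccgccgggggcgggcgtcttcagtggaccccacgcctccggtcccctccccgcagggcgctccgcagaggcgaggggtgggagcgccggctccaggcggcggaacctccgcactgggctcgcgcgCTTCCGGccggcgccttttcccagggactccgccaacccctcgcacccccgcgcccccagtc

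The libraries held 17645545 to 23810056 expected counts, of which the 250 genes took 0.197% and 0.189% in the control group, 0.169% and 0.158% in the SS group and 0.205% and 0.216% in the SS+NAC group. All 250 genes had a count in at least 1 library, and 232 passed the filter on low counts. The 18 that did not, among them ZNF208 of 19p12 and the testis gene ZNF541, had at most 18 counts in any library. The median tested gene had 101 counts in a library, and 116 of the 232 had a mean below 100. Of 12 listed thyroid marker genes 9 were in the deposited table, and 6 were above 1 CPM in the control group. PAX8 was at 269 CPM and HHEX at 24.6 CPM, while TG, SLC5A5, FOXE1 and DIO2 lay from 1.12 to 1.72 CPM. NKX2-1 (0.196 CPM), DUOX1 (0.224 CPM) and DIO1 (0 CPM) were lower. Of 5 epithelial markers 4 were above 1 CPM, with KRT8 at 1061 CPM and CDH1 at 0.514 CPM. All 5 mesenchymal markers were above 1 CPM, with VIM at 5744 CPM. Of 5 leukocyte markers 2 were above 1 CPM (CD68 with 79.6 CPM and CD14 with 1.13 CPM) while PTPRC was at 0.448 CPM. Of 5 fibroblast markers COL1A1 (629.9 CPM) and LUM (6.91 CPM) were above 1 CPM, and of 3 endothelial markers none. The replicates of each group differed by more than sampling noise, with a chi-square per degree of freedom of 3.16 in the control group, 7.46 in the SS group and 12.4 in the SS+NAC group.

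Levels were low for most of the family. On the per-length scale of FPKM, the median of the control means was 1.15, with 12 genes above 10 FPKM, 122 from 1 to 10 FPKM and 116 below 1 FPKM. ZNF787 had the highest level in the control group, 48.2 and 50.2 FPKM, against 51.9 and 56.8 FPKM in the SS group and 50.7 and 44.4 FPKM in the SS+NAC group. ZNF146, a protein built of fingers alone, followed with 30.7 and 27 FPKM in the control group, 15.7 and 14.7 FPKM in the SS group and 27.4 and 34.4 FPKM in the SS+NAC group. ZNF580 (19.8 and 21.9 FPKM in control), ZNF428 (21.1 and 19.8 FPKM) and ZNF581 (19.7 and 20.7 FPKM) came next, and the replicates of these 3 overlapped one another. Of these 5 genes, none carried a KRAB annotation.

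Summed over the family, the normalised level was lower in the SS group than in both other groups. The sum of the 250 genes was 1930 and 1882 CPM in the control group, 1726 and 1716 CPM in the SS group and 2012 and 2029 CPM in the SS+NAC group, so that the groups did not overlap. The sum of the KRAB genes followed the same order. It was 1258 and 1209 CPM in the control group, 1074 and 1004 CPM in the SS group and 1322 and 1374 CPM in the SS+NAC group. The 41 genes without KRAB annotation summed to 672 and 673 CPM, 652 and 712 CPM, and 690 and 655 CPM in the same order, and these groups overlapped. CPM is a share of the RNA sequenced, and fewer cells that express a gene and less RNA per cell cannot be told apart in such bulk samples.

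**Figure D2:**
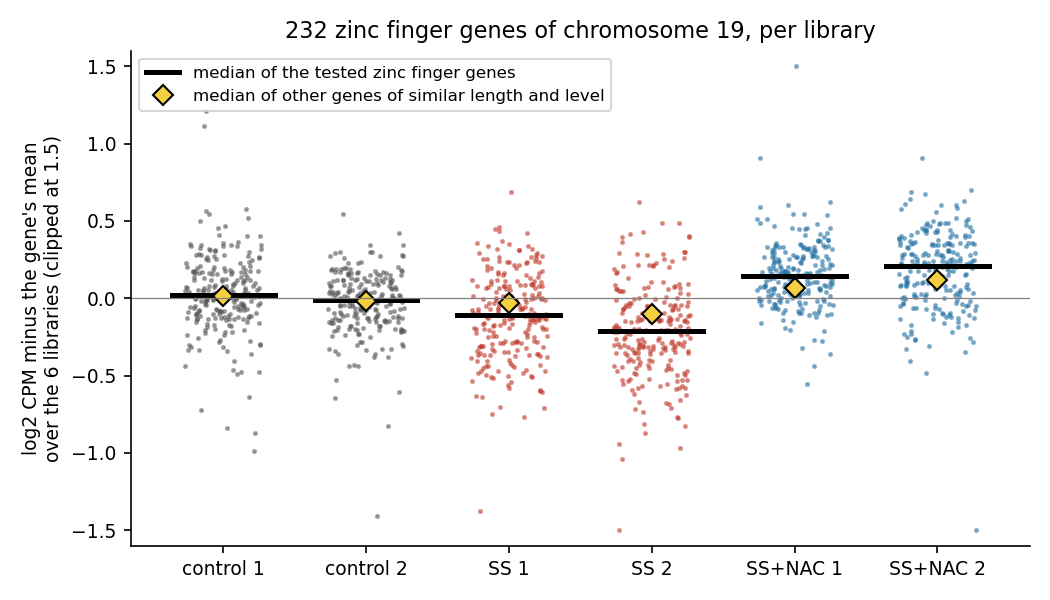
Each point is 1 of the 232 tested zinc finger genes of chromosome 19 in 1 library, as its log2 CPM minus its mean over the 6 libraries, with the median as a black line and the median of 2557 other genes of similar length and level as a yellow diamond. The medians of the family were 0.02 and -0.01 in control, -0.11 and -0.21 in SS and 0.14 and 0.21 in SS+NAC, and the diamonds lay closer to 0 in the SS and SS+NAC libraries.

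Compared to the control group, 48 of the 232 tested genes were lower and 11 were higher in the SS group (edgeR quasi-likelihood test, Benjamini-Hochberg adjusted p of at most 0.05 over 14005 genes). That is 20.7% lower and 4.74% higher, against 21.4% lower and 18.6% higher over all genes tested. The share of lower genes was thus close to that of the transcriptome, and few genes of the family were among those that rose. The log2 fold changes of the 48 genes ran from -1.97 to -0.30 with a median of -0.61, and those of the 11 genes from 0.30 to 0.93 with a median of 0.47. The median over the family was -0.17, compared to 0.00 over all genes. Both SS libraries lay below both control libraries for 45.7% of the genes and above them for 17.7%, against 36.9% and 36.3% of all genes. Fewer genes of the family were called, both lower and higher, without control replicate 1, without control replicate 2 or without SS replicate 2. These counts were not set against all genes in the same fits.

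Length moved with the fold change in these libraries. Over all genes tested, Spearman's rho between effective length and the log2 fold change of SS against control was -0.68, a description over genes that share the same libraries, and in the family it was -0.21. Genes of similar length and level, meaning the 2557 other tested genes from 2071 to 6263 bases and from -0.01 to 4.05 in mean log2 CPM, were lower in 13.6% and higher in 4.5% of cases with a median of -0.06. The 149 genes of the family within these limits were lower in 23.5% and higher in 2.01% of cases with a median of -0.22. When each gene was set against the other genes in its eighth of length (8 groups) and its class of level (4 groups), 135 of 232 lay below the median of those genes, by a median difference of -0.08. With an offset for length in the fit, 13 genes were lower and 8 higher, or 5.6% and 3.45%, against 5.03% and 4.19% of all genes, and the median was -0.04. In that fit the 149 genes of the family within the limits were lower in 6.04% and higher in 1.34% of cases with a median of -0.11, and the 2557 others in 3.29% and 2.66% with a median of 0.02. The part of length in these results was not tested beyond this offset.

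Along length, the medians of the family and of the other genes in SS against control were 0.47 and 0.46 in the first eighth and 0.30 and 0.27 in the second, where 7.69% of 13 genes of the family and 40.6% of the others were called higher. Against SS+NAC the medians of the second eighth were -0.08 and 0.25. In the third eighth of length, with a median of 2215 bases, the median of its 28 genes was -0.06 while that of the 1722 other genes was 0.15. In the fourth eighth the medians were -0.18 over 40 genes and 0.04 over 1711 others. The medians were -0.16 and -0.08 in the fifth eighth and -0.27 and -0.18 in the sixth. In the seventh and the longest eighth the order was the other way, with -0.20 over 31 genes and -0.30 over 1719 others, and -0.19 over 28 genes and -0.47 over 1723 others. Against SS+NAC the order did not turn in the seventh eighth, with medians of -0.43 and -0.30. It did in the longest, with -0.29 and -0.44. With the length offset, 7 of the 8 genes called higher against control were from this longest eighth. They were described on the same samples as the offset was fitted to, and the difference between the groups of genes was not tested.

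**Figure D3:**
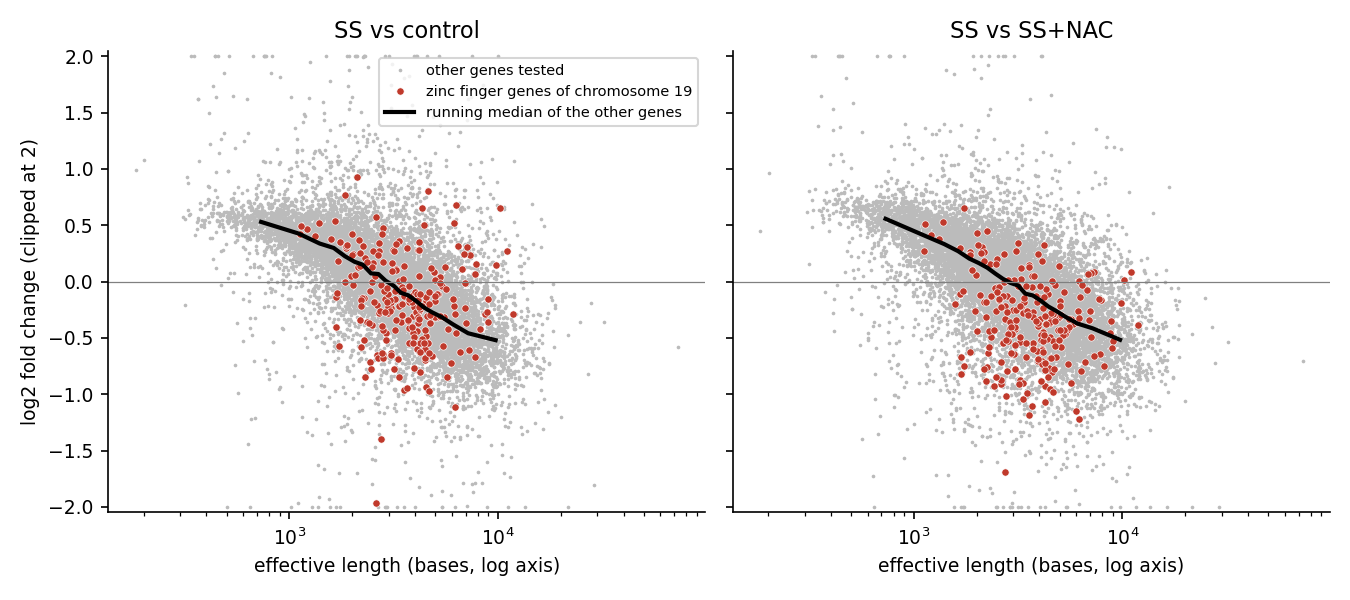
Log2 fold change of SS against control (left) and of SS against SS+NAC (right) plotted against effective length on a log axis, with the 232 zinc finger genes of chromosome 19 in red, the other tested genes in grey and their running median in black. The running median falls from short to long genes in both panels, and Spearman's rho over all genes is -0.68 and -0.64.

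Among the genes with at least 1 CPM, the lowest log2 fold change was that of ZNF525, a KRAB gene of 19q13.42. It was at 6.0 and 6.88 CPM in the control group and at 3.01 and 2.97 CPM in the SS group, and it fell by 53.7% (log2 fold change -1.11, SE 0.18, adjusted p = 0.0010). With NAC it was at 6.17 and 7.81 CPM, so that only the SS libraries were low. ZNF66, a KRAB gene of 19p12 with 14 fingers, was at 96.0 and 84.9 CPM in the control group, 51.2 and 41.1 CPM in the SS group and 87.9 and 94.8 CPM in the SS+NAC group. It fell by 48.9% against control (log2 fold change -0.97, SE 0.11, edgeR adjusted p = 0.0002). Its model in the table spans 541161 bases, from 20297830 to 20838990 on chromosome 19, against 33692 bases in RefSeq, and overlaps ZNF626 and ZNF737, so this level cannot be assigned to ZNF66 alone. ZNF146 of 19q13.12 was at 101 and 90.1 CPM in the control group, 53.2 and 53 CPM in the SS group and 91.0 and 108 CPM in the SS+NAC group. It fell by 44.3% (log2 fold change -0.85, SE 0.10, edgeR adjusted p = 0.0002), and none of its 50-base windows occurred in another gene, although its model overlaps that of ZNF565. With the length offset its log2 fold change was -0.76 (edgeR adjusted p = 0.0016).

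The other genes with the largest decreases by the same rule were lower in expression. ZNF493 of 19p12 was at 2.17 and 1.85 CPM in the control group and 0.959 and 1.1 CPM in the SS group, and ZNF441 of 19p13.2 at 2.89 and 2.76 CPM against 1.35 and 1.6 CPM. Against control, ZNF253 of 19p13.11 changed by -44.3%, ZNF845 by -44.2%, ZNF813 by -42.7%, ZNF761 by -41.8% and ZNF708 of 19p12 by -41.3%. In each of these 7 genes both SS libraries were below both control libraries. ZNF525, ZNF845, ZNF813 and ZNF761 are neighbours in 19q13.42 whose models overlap in the table, so they are not independent measurements. The model of ZNF708 spans 381460 bases against 38251 in RefSeq, is listed on the opposite strand and overlaps ZNF493, ZNF431, ZNF714 and ZNF738. Those of ZNF441 (151217 bases against 17079) and ZNF253 (135995 against 28845) also overlap neighbouring zinc finger genes. The calls of ZNF525, ZNF66, ZNF146, ZNF761 and ZNF708 held without each library in turn and with the length offset, while ZNF493, ZNF441, ZNF845 and ZNF813 were not called with the offset. Without control replicate 1 the calls of ZNF493, ZNF441, ZNF253, ZNF845 and ZNF813 were lost, without SS replicate 2 those of ZNF493, ZNF441, ZNF253 and ZNF813, without SS replicate 1 those of ZNF493 and ZNF441, and without control replicate 2 that of ZNF441. The lowest fold change of all, that of ZNF439, rested on 14 and 11 counts in the control group and 4 and 3 in the SS group, and it is named here after its values were seen.

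**Figure D4:**
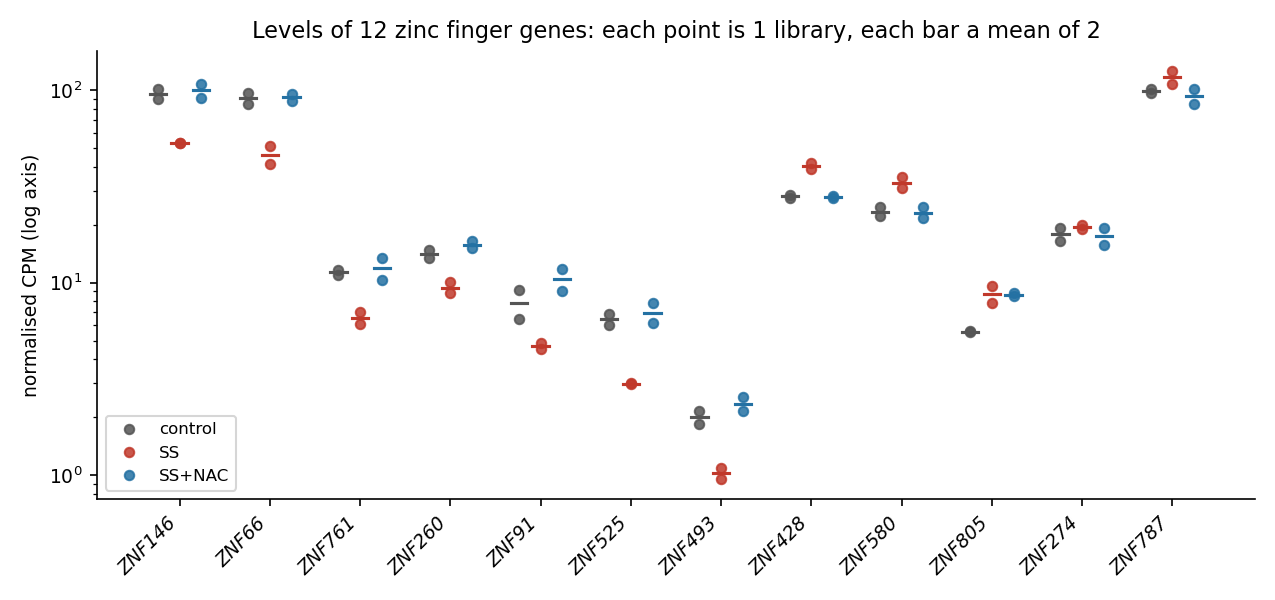
Normalised CPM on a log axis of 12 zinc finger genes of chromosome 19, where each point is 1 library, each bar the mean of 2, and the colours stand for control, SS and SS+NAC. The SS points of ZNF146, ZNF66, ZNF761, ZNF260, ZNF91, ZNF525 and ZNF493 lie below those of both other groups, those of ZNF428, ZNF580 and ZNF787 above, and ZNF805 is low only in control.

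The genes that rose were mostly short and without KRAB. ZNF428, with 1386 bases and a single finger, was at 28.6 and 27.3 CPM in the control group, 38.7 and 41.7 CPM in the SS group and 27.6 and 28.2 CPM in the SS+NAC group. It rose by 43.7% against control (log2 fold change 0.52, SE 0.08, edgeR adjusted p = 0.0008). In 19q13.42, 4 genes without KRAB annotation also rose, ZNF580 by 41.0%, ZNF581 by 38.4%, ZNF524 by 34.4% and ZNF784 by 33.6%, and so did ZNF414 of 19p13.2 by 32.6%. The models of ZNF580 and ZNF581 overlap. Without SS replicate 2 the calls of ZNF581, ZNF414, ZNF524 and ZNF784 were lost, without control replicate 1 those of ZNF414, ZNF524 and ZNF784, and without control replicate 2 or SS replicate 1 those of ZNF524 and ZNF784. None of these 6 genes was called with the length offset, where their log2 fold changes were between 0.03 and 0.24. The other 1746 genes in the shortest eighth of length had a median of 0.46 and 69.3% of them were called higher, and the 5 genes of the family in that eighth were all called higher with a median of 0.47. ZNF837, without KRAB, rose by 90.9% from 1.33 and 1.76 CPM to 2.79 and 3.20 CPM, and it lost the call without control replicate 1, without SS replicate 2 and with the length offset.

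The KRAB genes that rose were 3 in number. ZNF805 of 19q13.43, with 10201 bases the third longest of the tested family, was at 5.61 and 5.52 CPM in the control group, 9.59 and 7.86 CPM in the SS group and 8.49 and 8.85 CPM in the SS+NAC group. Its log2 fold change against control was 0.65 (SE 0.15, edgeR adjusted p = 0.0054) and 1.19 with the length offset (adjusted p = 0.0012), and both treated groups were high. Its model, of 99004 bases against 22097 in RefSeq, overlaps ZNF264, ZNF460 and ZNF543. ZNF490 was at 3.56 and 4.21 CPM in control, 5.19 and 6.03 CPM in SS and 5.42 and 5.77 CPM in SS+NAC, but 60.4% of its windows occurred in other genes and the call was lost without control replicate 1 and without SS replicate 2. ZNF749 rose from 6.95 and 7.06 CPM to 9.02 and 8.91 CPM, with 6.83 and 7.44 CPM in the SS+NAC group (log2 fold change 0.36, SE 0.13, edgeR adjusted p = 0.046). Its call was lost without each of the 4 control and SS libraries in turn.

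Among the bands with over 10 tested genes, the share of lower genes was highest in 19p12, a cluster that expanded in primates and in which the table annotated KRAB in all but ZNF493 and ZNF708. Of its 33 genes 26 were tested, and 13 of them (50%) were lower and none was higher in SS against control, where 21.4% of all genes were lower and 18.6% higher. Their median was -0.48, and in 20 of the 26 both SS libraries were below both control libraries. Around the mean level of each gene, the cluster had median deviations of 0.12 and 0.10 in control, -0.31 and -0.37 in SS and 0.27 and 0.29 in SS+NAC. Of the 26 genes 21 lay below other genes of their length and level, by a median of -0.25. After the length offset 6 genes were lower (23.1%, against 5.03% of all genes) and the median was -0.27. The genes of 19q13.41 had a median of -0.32 with 7 of 29 lower (24.1%, near the 21.4% of all genes) and none higher, which became -0.20 with 1 lower (3.45%, against 5.03%) after the offset. The largest group, 19q13.43, had 3 lower and 3 higher of 50 genes with a median of -0.16. With the length offset it had 0 lower and 3 higher (6% higher, against 4.19% of all genes) with a median of 0.00. The bands were compared by counts only, and overlapping models within a cluster make its genes dependent.

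**Figure D5:**
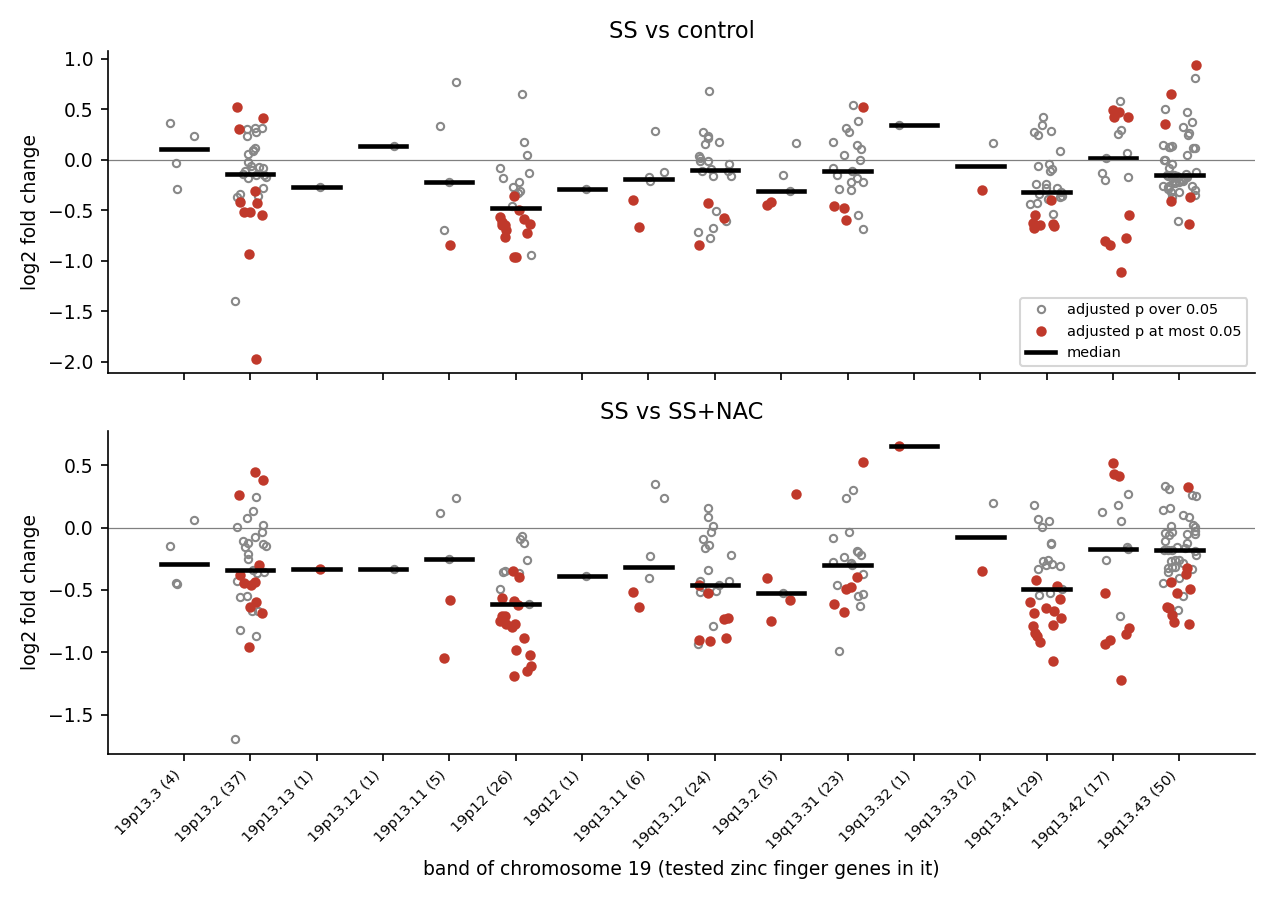
Log2 fold change of each tested zinc finger gene by band along chromosome 19, for SS against control (top) and SS against SS+NAC (bottom), with genes at an adjusted p of at most 0.05 filled, the others open and the median of each band as a bar. Band 19p12 holds the lowest median of the bands with over 10 genes in both panels, -0.48 and -0.62, and 19q13.42 holds both risers and some of the largest decreases.

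Compared to the SS+NAC group, more of the family was lower in the SS group. Of the 232 genes 77 were lower and 10 higher, or 33.2% and 4.31%, against 23.1% and 19.6% of all genes tested (edgeR, adjusted p of at most 0.05). The 2557 other genes of similar length and level were lower in 21% and higher in 3.68% of cases with a median of -0.16, while the 149 genes of the family within these limits were lower in 42.3% and higher in 0.67% with a median of -0.41. Over the whole family the median was -0.35, compared to -0.03 over all genes. Both SS libraries lay below both SS+NAC libraries for 61.2% of the family and above them for 8.19%, against 38.1% and 32.3% of all genes. Of the 232 genes 162 lay below other genes of their length and level, by a median of -0.15. The fit with the length offset called 31 lower and 5 higher, against 7.38% and 7.04% of all genes, and the median was -0.19. Within the limits of length and level, 18.1% of the 149 genes of the family were then lower and 0.671% higher with a median of -0.26, and 7.9% and 2.85% of the 2557 others with a median of -0.06. Fewer genes of the family were called lower without SS replicate 2, a count that was not set against all genes in the same fit. This comparison shares the SS libraries with the one against control, so the 2 are not independent.

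In this comparison the lowest fold change was that of ZNF525, for which the level in SS was -57.2% relative to SS+NAC (log2 fold change -1.22, SE 0.17, edgeR adjusted p = 0.0006). ZNF493 had a log2 fold change of -1.19 (SE 0.26, edgeR adjusted p = 0.0043), with 2.15 and 2.53 CPM in the SS+NAC group. ZNF91, a KRAB gene of 19p12 with 31 fingers that represses SVA and LINE-1 elements, was at 9.12 and 6.47 CPM in control, 4.84 and 4.52 CPM in SS and 9.07 and 11.8 CPM in SS+NAC. Relative to SS+NAC its level in SS was -55.0% (log2 fold change -1.15, SE 0.19, edgeR adjusted p = 0.0011), and -0.80 with the length offset (adjusted p = 0.019). Against control its log2 fold change was -0.72 (edgeR adjusted p = 0.015), a call lost without control replicate 1, without SS replicate 2 and with the length offset. ZNF615 of 19q13.41 was at 2.39 and 2.17 CPM in control, 1.57 and 1.55 CPM in SS and 3.06 and 3.49 CPM in SS+NAC, with a log2 fold change of -1.07 against SS+NAC (SE 0.21, edgeR adjusted p = 0.0028). ZNF257 of 19p12, at 0.349 and 1.0 CPM in SS and 1.53 and 1.37 CPM in SS+NAC, passed narrowly (edgeR adjusted p = 0.047) and was kept in 1 of the 6 fits without a library.

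The 10 genes that were higher in SS than in SS+NAC all lacked a KRAB annotation. ZNF296 was at 8.46 and 10.5 CPM in SS and 6.71 and 5.32 CPM in SS+NAC, a difference of 57.4% (log2 fold change 0.65, SE 0.17, edgeR adjusted p = 0.011), and in control it was at 6.67 and 8.14 CPM. ZNF428 was 43.9% and ZNF580 43.0% higher, followed by ZNF653 with 36.5% and ZNF784 with 34.5%. ZNF787 was 25.6% higher (edgeR adjusted p = 0.023), whereas against control its difference of 18.2% was not called (adjusted p = 0.080). That difference was called without SS replicate 1, without either SS+NAC library, with only the libraries compared and with at least 10 counts in every library. None of these 6 genes was called with the length offset. ZNF296 lost the call without SS replicate 2, ZNF787 without SS replicate 2 or SS+NAC replicate 2, ZNF784 without either SS library or SS+NAC replicate 2, and ZNF653 without any 1 of the 6 libraries.

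In 19p12, 17 of 26 genes (65.4%) were lower in SS than in SS+NAC and none was higher, with a median of -0.62, where 23.1% of all genes were lower and 19.6% higher. With the length offset 9 were lower (34.6%, against 7.38% of all genes). ZNF85 was at 4.95 and 5.02 CPM in control, 4.18 and 3.70 CPM in SS and 6.79 and 6.73 CPM in SS+NAC. Its log2 fold change was -0.78 against SS+NAC (SE 0.15, edgeR adjusted p = 0.0022), and -0.34 against control (adjusted p = 0.11). ZNF93, which binds a region of older LINE-1 elements, was at 4.95 and 4.03 CPM in control, 2.79 and 2.92 CPM in SS and 3.44 and 3.82 CPM in SS+NAC. It was lower against control (log2 fold change -0.64, SE 0.19, edgeR adjusted p = 0.019) but not called against SS+NAC (-0.35, adjusted p = 0.17), and the call against control was lost without control replicate 1, without either SS library and with the length offset. ZNF43, with 8857 bases, was at 12.8 and 13.6 CPM in control, 11 and 11 CPM in SS and 13.2 and 14.9 CPM in SS+NAC, with a log2 fold change of -0.35 against SS+NAC (edgeR adjusted p = 0.025) that became 0.13 with the length offset and was not called without control replicate 2, either SS library or SS+NAC replicate 2. In 19q13.41, 14 of 29 genes were lower (48.3%, against 23.1% of all genes) and none was higher, with a median of -0.49, and 8 were lower (27.6%, against 7.38% of all genes) with a median of -0.34 after the length offset.

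Between the SS+NAC and control groups, no gene of the family was called by edgeR, against 1.36% higher and 0.657% lower of all genes tested and 1.6% and 0.313% of those of similar length and level. At an unadjusted p under 0.05, 22 of the 232 genes were higher and 4 lower, against 1276 and 980 of all 14005 genes tested. The DESeq2 Wald test also called 0 genes of the family, a count that was not set against all genes in the same test. The median was 0.16, compared to 0.09 over genes of similar length and level and -0.00 over all genes. Both SS+NAC libraries lay above both control libraries for 39.7% of the family and below them for 6.47%, against 24% and 23.6% of all genes. Of the 232 genes 154 lay above other genes of their length and level, by a median of 0.07. ZNF805 came closest to a call with a log2 fold change of 0.64 (SE 0.14, edgeR adjusted p = 0.054), and it was the only gene called with the length offset (0.66, adjusted p = 0.036), where 1.35% of all genes were higher and 0.664% lower. In the fit without SS+NAC replicate 1 some genes of the family were called, a count that was not set against all genes in the same fit.

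By domain, the KRAB genes and the others had different medians. Of 193 tested KRAB genes, 42 were lower and 3 higher in SS against control (21.8% and 1.55%, against 21.4% and 18.6% of all genes) with a median of -0.20, and 68 were lower and 0 higher against SS+NAC (35.2% lower, against 23.1% of all genes) with a median of -0.37, where 1 gene was higher at an unadjusted p under 0.05. Of the 39 tested genes without KRAB annotation, 6 were lower and 8 higher against control with a median of 0.11, and 9 were lower and 10 higher against SS+NAC with a median of 0.01. The KRAB genes were longer, with a median of 3912 bases against 2902 bases. The length offset changed these counts. Against control it left 10 lower and 8 higher KRAB genes (5.18% and 4.15%, against 5.03% and 4.19% of all genes) with a median of -0.07, and 3 lower and 0 higher of the others with a median of 0.09, so that the genes called higher were then all KRAB genes. Against SS+NAC it left 25 lower and 4 higher KRAB genes (13% and 2.07%, against 7.38% and 7.04% of all genes) with a median of -0.22, and 6 lower and 1 higher of the others with a median of 0.05. The difference between these sets of genes was not tested. By finger number, genes with 15 or more fingers had 15 lower (21.1%) and 0 higher of 71 against control with a median of -0.26, those with 10 to 14 had 27 lower (27.6%) and 3 higher of 98 with a median of -0.19, and those with up to 9 had 6 lower (10%) and 8 higher of 60 with a median of 0.04. Over all genes 21.4% were lower and 18.6% higher. Their median lengths were 4105, 3858 and 2686 bases. After the length offset the 3 classes had 1 lower and 1 higher, 11 lower and 5 higher, and 1 lower and 2 higher, with medians of -0.07, -0.08 and 0.06. Against SS+NAC, without the offset, they had 28 lower (39.4%) and 1 higher, 33 lower (33.7%) and 0 higher, and 14 lower (23.3%) and 9 higher. The medians were -0.35, -0.41 and -0.19 in the same order. Over all genes 23.1% were lower and 19.6% higher in that comparison.

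The members with the shared promoter word were also counted. Of the 23 genes 21 were tested, and 7 were lower and 0 higher in SS against control with a median of -0.33, compared to 37 lower and 10 higher of 184 genes without the word and a median of -0.16, where 21.4% of all genes were lower and 18.6% higher. Against SS+NAC, 11 of 21 were lower with a median of -0.61, and 57 of 184 without the word with a median of -0.33, where 23.1% of all genes were lower. In the fit with the length offset, 2 genes with the word were lower and 1 higher against control with a median of -0.13, and 9 lower and 7 higher without it with a median of -0.02. Against SS+NAC that fit had 5 lower genes with the word and a median of -0.42, and 22 lower without it and a median of -0.16. Over all genes that fit called 5.03% lower against control and 7.38% against SS+NAC. Genes with an ETS core had medians of -0.22 and -0.37 in the 2 comparisons over 95 genes, and those without it -0.12 and -0.30 over 110 genes, which after the offset were -0.13 and -0.25 with the core and 0.01 and -0.15 without it. Genes with a CCAAT box had medians of -0.21 and -0.34 over 109 genes. Those without it had -0.11 and -0.37 over 96 genes, so the order was the other way against SS+NAC. After the offset these were -0.10 and -0.22 with the box and 0.07 and -0.15 without it. Of the 23 holders 18 lie in 19p12, and genes with and without the word were not compared within that band.

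Of the other genes followed whatever their values, ZNF260 of 19q13.12, a protein of fingers alone, was at 14.7 and 13.4 CPM in control, 10.0 and 8.82 CPM in SS and 15 and 16.4 CPM in SS+NAC. Its log2 fold change was -0.74 against SS+NAC (SE 0.12, edgeR adjusted p = 0.0009), a call that held with the length offset (-0.42, adjusted p = 0.028), and -0.57 against control (adjusted p = 0.0037), which was not called with the offset. ZNF331, known from chromosome rearrangements in thyroid adenomas, was at 13.1 and 12.4 CPM in control, 11.4 and 10.8 CPM in SS and 15.3 and 16.7 CPM in SS+NAC. Relative to SS+NAC its level in SS was -30.6% (log2 fold change -0.53, SE 0.11, edgeR adjusted p = 0.0029) and not called against control (-0.20, adjusted p = 0.18) or with the length offset. The model of ZNF331, of 185260 bases against 77035 in RefSeq, overlaps those of ZNF525, ZNF761, ZNF765, ZNF813 and ZNF845. Its level is therefore not independent of theirs. ZNF274, which recruits SETDB1 to the ends of zinc finger genes themselves, was at 19.2 and 16.4 CPM in control, 19.8 and 19 CPM in SS and 15.7 and 19.2 CPM in SS+NAC, and these overlapped. ZNF444, with a SCAN domain, was at 40 and 39.6 CPM in control, 41.6 and 45.4 CPM in SS and 40.7 and 29.5 CPM in SS+NAC, and was not called in either comparison. Against SS+NAC it was called higher without SS+NAC replicate 1 and with at least 10 counts in every library. ZNF461 was at 4.17 and 4.57 CPM in control, 4.88 and 3.33 CPM in SS and 4.64 and 3.82 CPM in SS+NAC, a spread within groups wider than any difference between them. ZNF382 stayed below 1 CPM in each library, with a log2 fold change of -0.68 against control (SE 0.38, edgeR adjusted p = 0.18). ZNF536, a gene of neurons, was also below 1 CPM with a log2 fold change of -0.29 (SE 0.46, edgeR adjusted p = 0.65).

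The co-repressors with which KRAB proteins work did not move as 1 group. Of a list of 37 genes, all tested, 6 were higher and 10 lower in SS against control, or 16.2% and 27%, against 18.6% and 21.4% of all genes, with a median of -0.03. The balance turned with the length offset, where 4 were higher and 1 lower (10.8% and 2.7%, against 4.19% and 5.03% of all genes) with a median of 0.02. TRIM28, the partner of the KRAB domain, was at 580 and 630 CPM in control, 714 and 840 CPM in SS and 645 and 530 CPM in SS+NAC. It was higher in SS against control (log2 fold change 0.36, SE 0.11, edgeR adjusted p = 0.025), and with the length offset 0.37 (adjusted p = 0.058). Against SS+NAC it was 0.40 (SE 0.11, edgeR adjusted p = 0.015) and 0.42 with the offset (adjusted p = 0.025). In that comparison 7 of the 37 genes were higher and 10 lower (18.9% and 27%, against 19.6% and 23.1% of all genes), and 7 and 3 with the offset (18.9% and 8.11%, against 7.04% and 7.38%). SETDB1 (27.1 and 26.7 CPM as means of control and SS), CBX1 (106 and 107 CPM), CBX3 (165 and 161 CPM), CBX5 (180 and 158 CPM) and MORC2 (20.1 and 19.3 CPM) were not called. The sign of CBX5, which has 11744 bases, changed with the length offset. Its log2 fold change was -0.19 (edgeR adjusted p = 0.058) without and 0.39 with it (adjusted p = 0.0066). FAM208A, also known as TASOR, a subunit of the HUSH silencing complex, was at 94.2 and 83.7 CPM in control, 50.9 and 50.1 CPM in SS and 76.4 and 84.1 CPM in SS+NAC. Its log2 fold change was -0.81 (SE 0.09, edgeR adjusted p = 0.0002), and -0.38 with the length offset (adjusted p = 0.014). PPHLN1 and MPHOSPH8 of the same list had positive log2 fold changes in both fits, but each was called in only 1 of them. PPHLN1 had a log2 fold change of 0.22 (edgeR adjusted p = 0.035), and 0.03 with the offset (adjusted p = 0.83). For MPHOSPH8 it was 0.08 (edgeR adjusted p = 0.48), and 0.32 with the offset (adjusted p = 0.049). The chromatin remodeller ATRX, with 10484 bases, was at 58.4 and 52.6 CPM in control, 29.9 and 34.1 CPM in SS and 44.2 and 50.3 CPM in SS+NAC, and its log2 fold change of -0.79 (edgeR adjusted p = 0.0003) was -0.24 with the length offset (adjusted p = 0.16).

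The family was last set against its nearest relatives. The 234 tested ZNF genes of other chromosomes had 69 lower (29.5%, against 21.4% of all genes) and 9 higher (3.85%, against 18.6%) in SS against control with the same median of -0.17. Against SS+NAC 100 were lower (42.7%, against 23.1%) and 11 higher (4.7%, against 19.6%) with a median of -0.30. The length offset left 15 lower (6.41%, against 5.03% of all genes) and 2 higher against control with a median of -0.03, and 37 lower (15.8%, against 7.38%) and 6 higher against SS+NAC with a median of -0.10. The 811 tested other genes of chromosome 19, with a median of 2230 bases, had 258 higher and 46 lower against control (31.8% and 5.67%, against 18.6% and 21.4% of all genes) with a median of 0.23. With the length offset 28 were higher and 4 lower (3.45% and 0.493%, against 4.19% and 5.03% of all genes) with a median of 0.07. The differences between these sets of genes were not tested.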

How the data were processed

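RNA-seq of 6 KHM-5M cultures was analysed, 2 in each group. The authors sequenced poly(A) RNA as single-end 50-base reads, mapped them with HISAT2 2.0.4 and quantified genes with RSEM 1.2.12 (Bowtie2 2.2.5 is also named in the submitters' processing notes). The expected counts deposited by the authors are not normalised, and the deposited FPKM values were scaled by the authors for length and depth. The TPM values of the authors, and their log2 fold changes, p-values and q-values deposited beside them, were not used. Expected counts were rounded, filtered with filterByExpr (14005 genes), scaled with TMM and fitted over all 6 libraries with the quasi-likelihood test of edgeR 4.0.16 (R 4.3.3), with Benjamini-Hochberg adjustment over all genes. A gene was called at an adjusted p of at most 0.05. No strand-marking step is described for the library preparation, so overlapping and antisense genes cannot be separated. Effective length was derived from counts and FPKM. The length offset came from a lowess fit (span 0.3) of log2 CPM deviations on log2 effective length in each library. The procedure was tested on simulated data. Named genes were, among those called with at least 1 CPM in a group, the 10 lowest and 10 highest against control and the 5 lowest and 5 highest in the other comparisons, the 5 with the highest FPKM in control, and a list of zinc finger genes and co-repressors. Members, lists and motifs were chosen with earlier results of these data known. Shared windows and fingers came from GENCODE release 29, promoters and spans from RefSeq (GRCh38.p14). The study describes the replicates as biological. CPM values are TMM-normalised. At about 101 counts, the depth of the median gene, counting error alone is large, so small differences were not detectable. Alternatives were DESeq2 1.42.0 (size factors, Wald test), other filters, Bonferroni adjustment, the length offset, a fit of only the libraries compared, a block by replicate number, and leaving out each library.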

Additional observations from a re-analysis of the deposited data

How the results depend on the processing

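Directions of the family medians were the same under each alternative, while counts moved with the test, the length offset and single libraries. Among the fits, shares over all genes were given for the main fit and the length offset only. Under the other alternatives it was not tested whether the counts of the family moved differently from those of all genes. In SS against control, the DESeq2 Wald test called 7 genes higher and 22 lower, the length offset 13 lower with a median of -0.035, and Bonferroni adjustment 0 higher and 1 lower, where edgeR had 11 and 48. In SS against SS+NAC, DESeq2 called 48 lower, the length offset 5 higher and 31 lower with a median of -0.19, and Bonferroni adjustment 0 higher and 2 lower, where edgeR had 10 and 77. In SS+NAC against control, 1 gene was higher with at least 10 counts in every library and 1 with the length offset, where edgeR had 0. Leaving out each library gave 4 to 17 higher and 14 to 50 lower genes against control with medians from -0.23 to -0.12, and 2 to 13 higher and 40 to 72 lower genes against SS+NAC with medians from -0.42 to -0.30. For SS+NAC against control it gave 0 to 6 higher and 0 to 2 lower genes with medians from 0.12 to 0.19. The higher genes against control numbered 17 without either SS+NAC library, and those against SS+NAC 6 without SS+NAC replicate 2 and 2 without SS replicate 2. An arm with 1 library left was assumed to vary like the other groups.

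Of 55 named values of 36 genes, 40 were called. Of the 23 called against control, 9 were kept without every library in turn and 6 also under the other alternatives except Bonferroni adjustment; of the 17 called against SS+NAC these were 10 and 7. The DESeq2 Wald test ended 11 calls, those of ZNF493, ZNF441, ZNF813, ZNF490, ZNF524, ZNF784, ZNF749 and ZNF93 against control and of ZNF653, ZNF784 and ZNF43 against SS+NAC. With the length offset 23 calls were lost in the same direction and that of ZNF43 against SS+NAC was lost with its sign, which reversed for ZNF43 (0.24 against control, 0.13 against SS+NAC), ZNF331 (0.054 against control), ZNF461 (0.087 and 0.14), ZNF444 (-0.024 against control) and ZNF536 (0.28 and 0.16). Without 1 library it reversed for ZNF461 against control (0.0095 without control replicate 2 and 0.15 without SS replicate 2, in a range from -0.39 to 0.15) and against SS+NAC (0.21 without SS replicate 2 and 0.11 without SS+NAC replicate 1, in a range from -0.34 to 0.21), and for ZNF536 against SS+NAC (0.10 without SS+NAC replicate 2, in a range from -0.75 to 0.10). The cause was not tested.

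The labels do not say whether equal replicate numbers mark paired cultures. Deviations of equal numbers correlated at 0.11, -0.11 and -0.17, which cannot decide this with 2 libraries per group. With a replicate block 9 genes were higher and 41 lower against control, 7 higher and 68 lower against SS+NAC, and 0 in SS+NAC against control. These counts were not set against all genes in the same fit. With the block 3 named calls were lost, ZNF784 and ZNF749 against control and ZNF653 against SS+NAC.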

Other observations

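The other finger genes of chromosome 19, those named ZFP, ZSCAN, ZIK, ZIM, ZKSCAN or ZBTB with a number, were 17 in the table and 10 of them were tested. In SS against control 1 was higher and 1 lower (10% each, against 18.6% and 21.4% of all genes) with a median of 0.01. In SS against SS+NAC 2 were higher and 1 lower (20% and 10%, against 19.6% and 23.1% of all genes) with a median of -0.14. With the length offset 1 was higher and 0 lower against control with a median of 0.19. Against SS+NAC that fit called 0, and the median turned to 0.12. Among the 18 zinc finger genes that were too low to test, ZNF177 had 0 and 3 counts in the control group, 10 and 10 in the SS group and 0 and 18 in the SS+NAC group. ZNF442 had 6 and 4, 8 and 9, and 7 and 15 counts in the same order, and ZNF208 2 and 7, 2 and 9, and 9 and 9. ZNF177, ZNF559-ZNF177 and ZNF442 were named after their values were seen.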
